A study of Mus musculus with 2 samples.

Results

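Collagens are the main structural proteins of the extracellular matrix, and the mouse genes that encode their chains carry symbols of the form Col, a type number, the letter a and a chain number. Protein-coding genes with such a symbol were taken as the collagen genes, which gave 44 of the 55416 genes in the count table. RNA was sequenced from 2 rhabdoid tumors, which are aggressive tumors marked in most cases by loss of Smarcb1 and rarely of Smarca4. These genes encode subunits of a chromatin remodeling complex called SWI/SNF. One tumor was labelled intracranial, at the trigeminal nerve, and the other extracranial, in the facial and maxillar region, and both were classified as MYC. Both came from Dppa3-cre::Smarcb1 mice. Dppa3 is active in primordial germ cells, and its knock-in Cre deletes a floxed Smarcb1 allele, which the study gives as heterozygous, so that the wild-type allele is not a target of Cre. The ages of the mice are not given in the sources used here, no normal tissue was sequenced with them, and each location had 1 tumor from 1 library. No spread between tumors of 1 location could therefore be measured, no test was possible, and every difference below compares these 2 libraries and not the locations in general.

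Each collagen molecule is a triple helix of 3 chains, which can be copies of 1 chain or products of different genes, so that the level of one chain bears on what its partner can form. Fibrillar collagens build the tension-bearing fibrils of skin, bone, tendon and tumor stroma, type IV collagen builds the sheet of basement membranes under epithelia and around vessels, type VI collagen forms beaded filaments around cells, and the FACIT collagens sit on the surface of fibrils. Transmembrane collagens are anchored in the plasma membrane, as type XVII collagen is in the hemidesmosomes of basal keratinocytes.

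The intracranial-labelled library held 34545846 counts and the extracranial-labelled library 26915696. Levels are given in CPM, which are counts scaled to a common library size by TMM, or, where genes are compared with each other, as CPM per kilobase of exon. Ratios are extracranial over intracranial on the log2 scale with an exact 95% counting interval, which covers the error of counting reads without molecular identifiers and nothing else. Smarcb1, the targeted gene, had 365 counts (10.5 CPM, interval 9.45 to 11.6) in the intracranial-labelled library and 530 counts (19.8 CPM, interval 18.2 to 21.6) in the extracranial-labelled library. It was thus detected in both, and counts over the whole gene do not separate the floxed part from the rest. The study stained an intracranial and an extracranial tumor of this model and reported loss of Smarcb1 protein in both. The part of cells other than tumor cells in these RNA counts was not tested. Postn, which the study uses as a single-cell marker of extracranial tumor cells, had 49555 counts in the intracranial-labelled library and 20657 in the other. These counts are 1.85-fold apart, a log2 ratio of -0.89. Angptl7, the study's marker of spinal tumor cells, had 13969 and 20351 counts, a log2 ratio of 0.92. Bmp4, the study's marker of intracranial MYC tumor cells, was not examined here. Of 10 keratinocyte markers, 9 were lower in the extracranial-labelled library, and their summed level was 3693 CPM in the intracranial-labelled library and 128 CPM in the other. Postn and the summed keratinocyte markers were thus higher in the library labelled intracranial. All 10 Schwann cell markers were higher in that library too, which was labelled as lying at a nerve. Bulk RNA also holds cells other than tumor cells, and the assignment of the labels to the libraries was not tested. The libraries are therefore named below by their labels only, as the intracranial-labelled and the extracranial-labelled library. Fewer cells of a type and less RNA per cell cannot be told apart in such bulk samples.

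The collagen genes together took shares of the libraries that differed little but by more than the counting error. They held 250275 counts or 0.724% (interval 0.722 to 0.727) in the intracranial-labelled library and 205018 counts or 0.762% (interval 0.758 to 0.765) in the extracranial-labelled library. Most of the collagen counts came from 7 genes of types I, III, V and VI, namely Col1a1, Col1a2, Col3a1, Col5a2, Col6a1, Col6a2 and Col6a3, which held 87.1% and 84.0% of them. Fibrillar collagens held 68.8% of the collagen counts in both libraries. The share of basement membrane collagens was 4.21% in the intracranial-labelled library and 9.80% in the extracranial-labelled library, whereas that of the FACIT collagens was 6.23% and 3.33% and that of the transmembrane collagens 0.951% and 0.0527%.

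**Figure D1:**
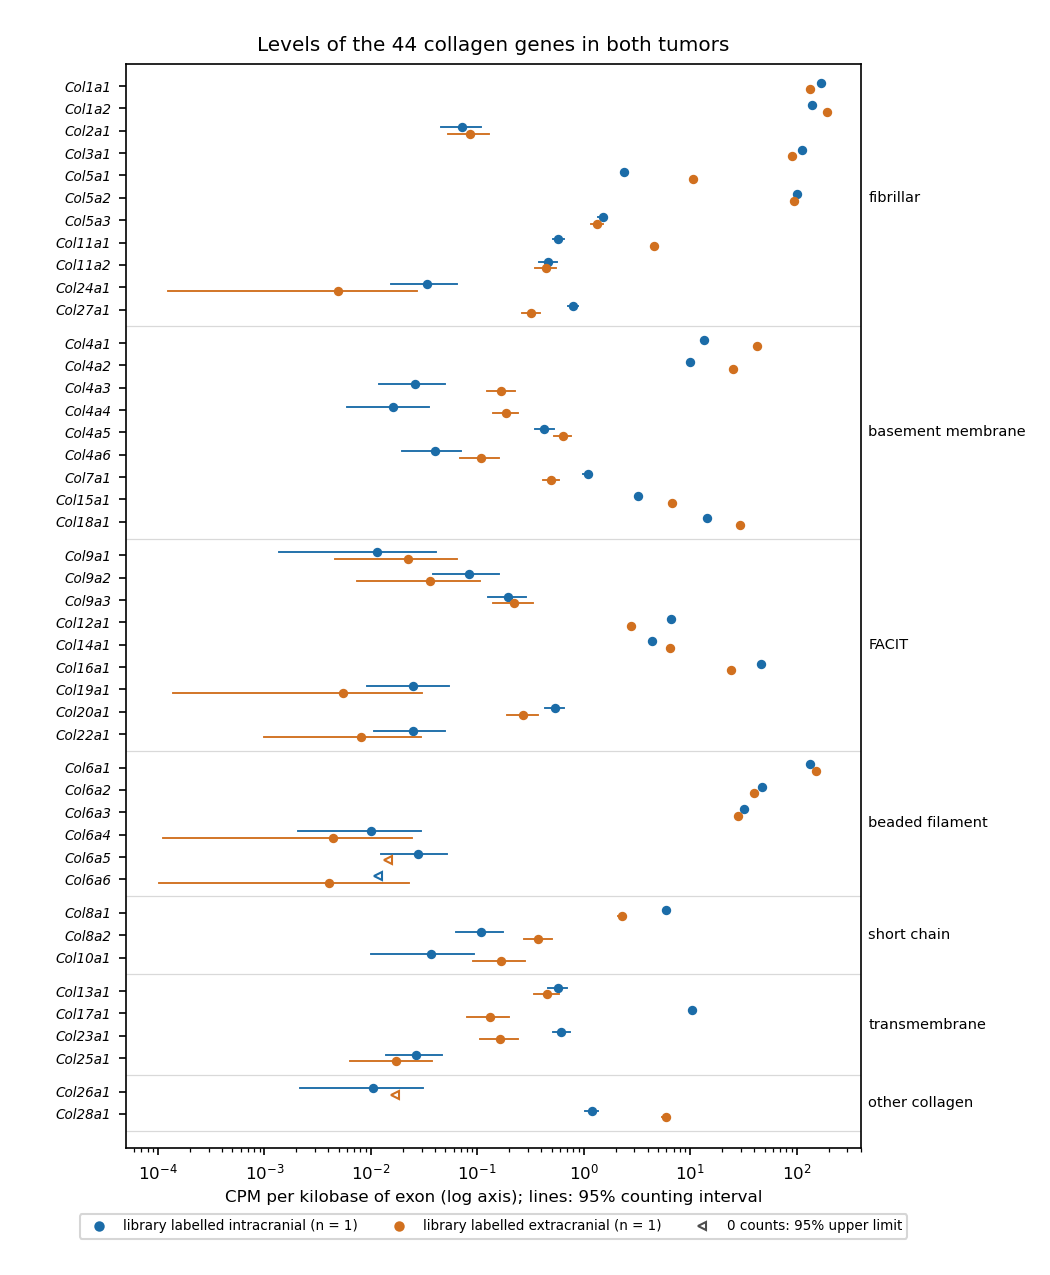
CPM per kilobase of exon (log axis) of each of the 44 collagen genes, by class, in the intracranial-labelled library (blue) and the extracranial-labelled library (orange), with 95% counting intervals as lines and the 95% upper limit as a triangle for a count of 0. Col1a1, Col1a2, Col3a1, Col5a2 and Col6a1 lie near or above 100 CPM per kilobase in both libraries, and Col17a1 shows the widest gap between the libraries.

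Of the 44 collagen genes, 38 had 10 or more counts over both libraries and were compared, and the call required an interval lying wholly beyond 4-fold. Col4a4, Col5a1, Col11a1 and Col28a1 were called higher in the extracranial-labelled library, which is 4 of 38, beside 1.78% of the 21977 genes compared in all. Col17a1 alone was called higher in the intracranial-labelled library, beside 5.41% of all genes. At 2-fold, Col4a1, Col4a2 and Col4a3 joined the genes higher in the extracranial-labelled library, which made 7, beside 5.86% of all genes. Col8a1, Col12a1 and Col23a1 joined Col17a1 on the other side, which made 4, beside 9.77% of all genes. In either direction 13.2% of the collagen genes were called at 4-fold, compared with 7.19% of all genes and 8.94% of protein-coding genes. Genes with many counts have narrow intervals and are called more readily, so these shares depend on expression level. The median log2 ratio was -0.13 over the 40 collagen genes with more than 3 counts in at least 1 library. It was -0.04 over all genes compared, which needed 10 or more counts. Col6a5 and Col19a1 had fewer and entered only the first median, so the filters of these medians differ. With a floor of 10 counts the collagen median was 0.17, so that its direction depends on the floor.

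**Figure D2:**
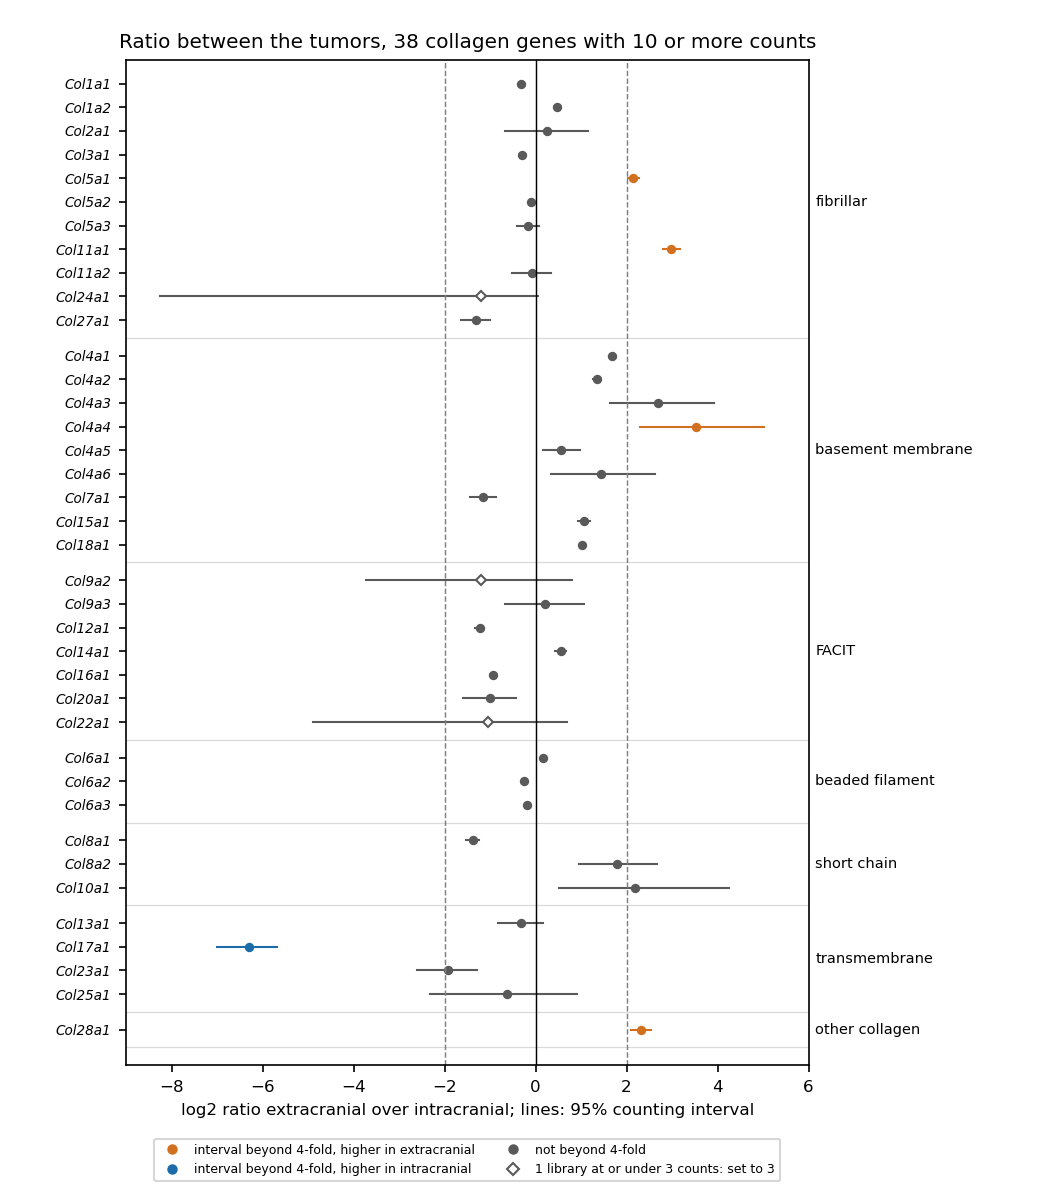
Log2 ratio of the extracranial-labelled library over the intracranial-labelled library for the 38 collagen genes with 10 or more counts, by class, with 95% counting intervals; dashed lines mark 4-fold. Orange points (Col4a4, Col5a1, Col11a1, Col28a1) and the blue point (Col17a1) have intervals wholly beyond 4-fold, and 8 of the 9 basement membrane collagens lie to the right of 0.

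The sequences before the start sites of the 5 called genes are shown because the data turn on these genes. They are the upstream bases of the RefSeq start in the build GRCm38.p6, written 5′ to 3′ on the strand of the gene, without bases that lie in an annotated exon, and capitals mark matches on either strand to the TATA motif TATAAA, to the CCAAT box, to the core of the GC box, GGGCGG, or to the AP-1 element TGANTCA.
Col4a4, chr1:82586850-82586920, minus strand: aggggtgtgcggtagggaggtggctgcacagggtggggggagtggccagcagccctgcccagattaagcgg
Col5a1, chr2:27886175-27886424, plus strand: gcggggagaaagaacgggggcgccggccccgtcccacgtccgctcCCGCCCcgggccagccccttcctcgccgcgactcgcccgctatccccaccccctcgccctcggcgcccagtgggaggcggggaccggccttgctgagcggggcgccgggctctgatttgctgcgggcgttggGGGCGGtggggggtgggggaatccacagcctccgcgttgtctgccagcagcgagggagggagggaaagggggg
Col11a1, chr3:114030290-114030539, plus strand: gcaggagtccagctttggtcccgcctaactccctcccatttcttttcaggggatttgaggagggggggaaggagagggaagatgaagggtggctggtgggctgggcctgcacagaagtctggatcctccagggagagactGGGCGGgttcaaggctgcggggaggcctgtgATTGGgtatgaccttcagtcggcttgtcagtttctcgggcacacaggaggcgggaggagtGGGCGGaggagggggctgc
Col17a1, chr19:47692095-47692292, minus strand: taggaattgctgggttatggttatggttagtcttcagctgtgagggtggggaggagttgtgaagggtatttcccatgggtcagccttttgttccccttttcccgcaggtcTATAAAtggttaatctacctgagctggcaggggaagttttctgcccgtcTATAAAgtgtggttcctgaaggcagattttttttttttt
Col28a1, chr6:8192618-8192867, minus strand: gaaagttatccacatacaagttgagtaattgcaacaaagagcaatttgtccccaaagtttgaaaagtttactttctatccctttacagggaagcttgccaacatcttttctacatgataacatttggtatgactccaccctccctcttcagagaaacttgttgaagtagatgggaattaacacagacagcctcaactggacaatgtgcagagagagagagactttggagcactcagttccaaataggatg
The stretch of Col4a4 is only 71 bases long because the exons of Col4a3, which is read in the opposite direction, begin there. Those of Col4a4, Col5a1 and Col11a1 were rich in G and C, with 69.0%, 76.4% and 62.4%, whereas those of Col17a1 and Col28a1 had 45.5% and 40.4%. GGGCGG matched 2 times before Col5a1 (bases 205 to 200 and 73 to 68 before the start) and 2 times before Col11a1 (bases 110 to 105 and 19 to 14), and CCAAT matched 1 time before Col11a1 (bases 79 to 75). TATAAA matched 2 times before Col17a1, at bases 140 to 135 and 91 to 86. The stretch of Col17a1 covers bases 250 to 53 before the start, because bases nearer to it lie in an annotated exon. A CCAAT match at bases 31 to 27 before Col17a1 lies outside this stretch and is not printed. No match stood in the printed stretches of Col4a4 and Col28a1. Among 38 windows of 250 bases before the starts of 35 collagen genes, GGGCGG was present in 57.9%, beside 32.7% of all 32851 windows. CCAAT was present in 34.2% and 33.8%, TATAAA in 13.2% and 12.4%, and TGANTCA in 2.63% and 6.75%. These matches describe letters and not bound sites.

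Among the 11 fibrillar collagens, the chains that make up the bulk of fibrils differed little, and Col5a1 and Col11a1, whose products sit inside fibrils and limit their width, were several-fold higher in the extracranial-labelled library. The summed level of the class was 4956 CPM in the intracranial-labelled library and 5269 CPM in the extracranial-labelled library, and the median log2 ratio was -0.09. For Col1a1, which encodes the chain present in 2 copies in type I collagen, the values were 38670 and 23741 counts, or 169.6 and 135 CPM per kilobase, a log2 ratio of -0.33 (interval -0.35 to -0.30). Its partner Col1a2 was counted 60210 and 64597 times, or 139 and 194 CPM per kilobase, a log2 ratio of 0.48 (interval 0.46 to 0.49). The chains of type I collagen thus differed in opposite directions, both by less than 1.5-fold.

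Col3a1, which encodes the chain of type III collagen of soft connective tissue, had 37995 and 23932 counts, a log2 ratio of -0.29 (interval -0.31 to -0.27). Col5a2, its neighbor on chromosome 1, had 33522 and 24288 counts, a log2 ratio of -0.09 (interval -0.11 to -0.06). Per kilobase the neighbors stood at 111 and 101 CPM in the intracranial-labelled library and at 91.1 and 94.6 CPM in the extracranial-labelled library. Col5a1, the partner of Col5a2 in type V collagen, had 711 counts (2.41 CPM per kilobase) in the intracranial-labelled library and 2419 counts (10.6 CPM per kilobase) in the extracranial-labelled library. That was 4.42-fold higher in the latter (log2 2.14, interval 2.02 to 2.27), which lies just beyond the threshold of 4-fold. On 212 bases its exons are overlapped by 2 antisense genes, and the strand setting of the counting is not stated. Col5a3, another type V chain, had 356 and 244 counts, and its interval of -0.41 to 0.07 included 0.

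Col11a1, a chain of type XI collagen of cartilage fibrils, had 256 counts (0.578 CPM per kilobase) in the intracranial-labelled library and 1561 counts (4.58 CPM per kilobase) in the extracranial-labelled library. It was 7.92-fold higher in the latter, with a log2 ratio of 2.99 (interval 2.79 to 3.18). Its partner Col11a2 had 111 and 81 counts, a log2 ratio of -0.08 (interval -0.51 to 0.35), so that only the first chain differed beyond the counting interval. Col27a1, a fibrillar collagen of the cartilage growth plate, had 360 and 112 counts, a log2 ratio of -1.31 (interval -1.63 to -0.998). Col2a1, the main fibrillar collagen of cartilage, stayed near detection with 23 and 21 counts. Col24a1 had 9 counts and 1 count, and its interval of -8.25 to 0.06 included 0.

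The 8 cartilage collagens did not differ together. Col2a1, Col9a1, Col9a2, Col9a3, Col10a1, Col11a1, Col11a2 and Col27a1 summed to 22.8 CPM and 67.9 CPM, most of it in the extracranial-labelled library from Col11a1, and the median log2 ratio of the 7 with a ratio was 0.20, which turned to -0.08 with a minimum of 100 counts or without members whose exons overlap another gene. Col10a1, the collagen of hypertrophic cartilage, had 4 and 14 counts (log2 2.18, interval 0.51 to 4.24). Of the cartilage markers, Acan, the large aggregating proteoglycan of cartilage, had 8 and 2 counts, Cnmd was at 0 in the extracranial-labelled library and Epyc was at 0 in the intracranial-labelled library. Of the 6 markers with 10 or more counts, 3 had an interval below 0, 2 had one that included 0, and Hapln1, with 264 and 370 counts (log2 0.86, interval 0.63 to 1.10), had one above 0, the same direction as Col11a1. The 10 markers summed to 221 CPM and 38.5 CPM, and the first of these sums came mainly from Comp with 6474 and 270 counts. In the extracranial-labelled library Hapln1 (13.8 CPM) and Sox9 (12.4 CPM) stood above Comp (10.1 CPM). The 10 bone and tooth markers summed to 24.4 CPM and 170.2 CPM. Dmp1, with 29 and 3988 counts, made up 0.835 CPM and 149 CPM of these sums, so that it led only in the extracranial-labelled library. Dspp was at 0 in both. Of the 9 with a ratio, 6 were higher in the extracranial-labelled library and 3 lower. At 4-fold, Dmp1 alone was called higher in the extracranial-labelled library, beside 1.78% of all genes. The 3 lower ones, Bglap (60 and 4 counts), Bglap2 (107 and 1) and Ibsp (186 and 15), were called the other way, beside 5.41% of all genes. The part of these cells in the level of Col11a1 was not tested.

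The fibroblast markers gave no single direction beside the fibrillar collagens. Of 10 markers 3 were higher in the extracranial-labelled library, among them Dcn and Lum, which encode proteoglycans that bind collagen fibrils. Lum had 853 and 15309 counts, 23.3-fold apart, and Dcn 3745 and 21130 counts, 7.33-fold apart. The other 7 were lower, and the sum was 992 CPM and 1799 CPM. None of the markers was at 0, and the part of fibroblasts in the fibrillar collagen levels was not tested.

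Of the 9 collagens of basement membranes and their borders, 8 were higher in the extracranial-labelled library and 1, Col7a1, was lower, each with a counting interval that excluded 0. A ratio above 0 was found in 47.0% of all genes compared, and the share with an interval excluding 0 was not computed. Their summed level was 303 CPM (interval 297 to 309) in the intracranial-labelled library and 751 CPM (interval 741 to 761) in the extracranial-labelled library, which is 2.48-fold apart. The median log2 ratio was 1.34, beside -0.04 over all genes compared. Of these genes 1 was called higher in the extracranial-labelled library at 4-fold and 4 at 2-fold, beside 1.78% and 5.86% of all genes.

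Col4a1 and Col4a2 encode the chains of type IV collagen found in nearly all basement membranes. Col4a1 had 3472 and 8525 counts, or 13.4 and 42.7 CPM per kilobase, which is 3.19-fold apart (log2 1.67, interval 1.62 to 1.73). Col4a2, which lies head to head with it on chromosome 8, had 2301 and 4489 counts, or 10.005 and 25.3 CPM per kilobase, which is 2.53-fold apart (log2 1.34, interval 1.27 to 1.41). Col4a3 and Col4a4, a head-to-head pair on chromosome 1 known from the basement membrane of the kidney glomerulus, were low in both tumors. Col4a4 had 6 and 53 counts, which is 11.5-fold apart (log2 3.52, interval 2.30 to 5.03). Col4a3 had 9 and 45 counts, which is 6.49-fold apart (log2 2.699, interval 1.65 to 3.92), and 563 bases of its exons are overlapped by an antisense gene. Both pairs were thus higher in the extracranial-labelled library, the rare pair at levels more than 100-fold below the common one.

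Col4a5 and Col4a6 form a further such pair on the X chromosome, and each stood higher in the extracranial-labelled library. Col4a5 had 100 and 114 counts (log2 0.57, interval 0.17 to 0.97), and Col4a6 had 11 and 23 counts (log2 1.44, interval 0.35 to 2.63). Col15a1 and Col18a1 encode the multiplexins, which link basement membranes to the tissue beneath and from which antiangiogenic fragments are cut. Col15a1 had 714 and 1146 counts (log2 1.06, interval 0.92 to 1.196), and Col18a1 had 3533 and 5564 counts (log2 1.03, interval 0.97 to 1.09). Col18a1 was the gene of the class with the highest level per length in the intracranial-labelled library, at 14.5 CPM per kilobase, whereas Col4a1 was in the extracranial-labelled library. Col7a1, which encodes the anchoring fibrils that fasten the epidermis to the dermis, had 390 and 135 counts (log2 -1.15, interval -1.45 to -0.87).

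Endothelial markers moved with the basement membrane collagens. All 10 had a ratio above 0, beside 47.0% of all genes compared, and 9 of them had an interval above 0. Their sum was 235 CPM in the intracranial-labelled library and 409.8 CPM in the extracranial-labelled library, which is 1.74-fold apart. None was at 0. Of the 10 pericyte and smooth muscle markers 5 were higher and 5 lower in the extracranial-labelled library, with sums of 442 and 546 CPM. The pericyte gene Rgs5 had 969 and 2875 counts, and Cnn1 of smooth muscle had 164 counts and 1 count. The part of vessels in the basement membrane collagen levels was not tested.

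The transmembrane collagens held the widest difference of all collagen genes. Col17a1, which encodes a hemidesmosome component of basal keratinocytes, had 2155 counts (10.3 CPM per kilobase) in the intracranial-labelled library and 21 counts (0.131 CPM per kilobase) in the extracranial-labelled library. It was 79.0-fold lower in the latter (interval 51.6 to 128), a log2 ratio of -6.30 (interval -7.00 to -5.69). Col23a1, a shed transmembrane collagen, had 123 and 25 counts (log2 -1.92, interval -2.60 to -1.29). Col13a1, a collagen of cell adhesion sites and the neuromuscular junction, had 91 and 56 counts (log2 -0.32, interval -0.83 to 0.17). Col25a1, whose product is found in amyloid plaques and is needed for motor innervation of muscle, had 12 and 6 counts (log2 -0.62, interval -2.32 to 0.90). All 4 ratios were below 0, and those of Col17a1 and Col23a1 had intervals that excluded 0.

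Keratinocyte markers moved with Col17a1 and Col7a1. Krt5, the type II keratin of basal keratinocytes, had 25883 counts in the intracranial-labelled library and 0 in the other. Its partner Krt14 had 74653 and 2 counts. Krt15, Krt1, Dsg3 and Trp63 were also at 0 in the extracranial-labelled library, and 8 of the 10 markers were called higher in the intracranial-labelled library, beside 5.41% of all genes. Itgb4, which joins Col17a1 in hemidesmosomes, had 3252 and 229 counts, while Itga6, which is made by other cells too, had 2701 and 3116 counts. The part of keratinocytes in the levels of Col17a1 and Col7a1 was not tested.

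The FACIT collagens leaned to the intracranial-labelled library, with summed levels of 449 and 255 CPM and a median log2 ratio of -0.96 over the 8 members with a ratio. Of these members 6 had a ratio below 0 and 2 above, and none was called at 4-fold. Col16a1, which links fibrils to their surroundings, was the most abundant of them per length and had 10896 and 4410 counts, or 46.5 and 24.4 CPM per kilobase (log2 -0.93, interval -0.98 to -0.88). Col12a1, a fibril-surface collagen of tendon and other loaded tissue, had 3483 and 1143 counts (log2 -1.23, interval -1.33 to -1.13). Its relative Col14a1 differed the other way, with 1063 and 1203 counts (log2 0.56, interval 0.44 to 0.68). Col12a1 and Col14a1 thus stood at 6.58 and 4.36 CPM per kilobase in the intracranial-labelled library and at 2.80 and 6.41 CPM per kilobase in the extracranial-labelled library, in reverse order.

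The other FACIT collagens were low. Col20a1 had 96 and 37 counts (log2 -0.999, interval -1.59 to -0.44). Among the chains of type IX collagen, which decorates cartilage fibrils, Col9a3 had 26 and 23 counts, Col9a2 had 9 and 3 counts and Col9a1 had 2 and 3 counts. Col22a1 of tissue junctions had 8 and 2 counts, and Col19a1 had 6 counts and 1 count. None of the intervals of the type IX chains and of these last genes excluded 0.

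The main beaded filament chains were abundant in both tumors and differed by less than 1.25-fold. Type VI collagen is a heterotrimer of the products of Col6a1, Col6a2 and a long further chain, most often that of Col6a3, and the class summed to 1373 and 1333 CPM. Col6a1 had 20574 and 17814 counts, or 135 and 152 CPM per kilobase (log2 0.17, interval 0.14 to 0.20). Col6a2, next to it on chromosome 10, had 13778 and 8894 counts (log2 -0.25, interval -0.29 to -0.22), and Col6a3 had 13330 and 8971 counts (log2 -0.19, interval -0.23 to -0.16). These differences exceeded the counting error. The alternative long chains were at or near 0 in both tumors. Col6a4 had 3 counts and 1 count, Col6a6 had 0 counts and 1 count, and Col6a5 had 9 and 0 counts, all below the minimum of 10 counts for a comparison.

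The short-chain collagens Col8a1 and Col8a2, which encode the network-forming type VIII collagen of vessels and of the cornea, differed in opposite directions. Col8a1 had 1626 and 480 counts (log2 -1.38, interval -1.53 to -1.24), whereas Col8a2 had 17 and 45 counts (log2 1.78, interval 0.95 to 2.68). Because Col8a1 was more abundant per length, at 5.97 and 2.29 CPM per kilobase beside 0.109 and 0.375 for Col8a2, the class summed to 47.4 and 20.1 CPM although its median log2 ratio was 1.78. That median of 3 genes was -1.38 with a minimum of 100 counts, which leaves Col8a1 alone, and 0.20 without members whose exons overlap another gene. Of the remaining collagens, Col26a1 had 3 and 0 counts. Col28a1, a von Willebrand factor A domain collagen known around Schwann cells of peripheral nerve, had 202 counts (1.19 CPM per kilobase) in the intracranial-labelled library and 774 counts (5.90 CPM per kilobase) in the extracranial-labelled library. It was 4.98-fold higher in the latter (log2 2.31, interval 2.09 to 2.55). All 10 Schwann cell markers were lower in that library, with sums of 240.0 and 155 CPM. Most of both sums came from Pmp22, at 177.5 and 135.4 CPM, which is 1.31-fold apart. Sox10, a factor that defines the lineage, had 43 and 0 counts, so that Col28a1 and these markers differed in opposite directions.

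Chains that assemble into 1 protein were compared within each library, per kilobase of exon, and the ratio between partners shifted most in types VIII, XI and V. Col8a1 exceeded Col8a2 by 54.8-fold in the intracranial-labelled library and 6.11-fold in the extracranial-labelled library, a shift of 8.97-fold (interval 5.09 to 15.8). Col11a1 exceeded Col11a2 by 1.24-fold (interval 0.992 to 1.57) and 10.4-fold (interval 8.31 to 13.2), a shift of 8.36-fold (interval 6.10 to 11.5). Col5a1 stood at 0.0240 and 0.113 of the level of Col5a2, a shift of 4.70-fold (interval 4.31 to 5.11). RNA of Col5a2 was thus more abundant per length in both tumors, and which chain was in excess as protein was not tested.

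For the other partners the shifts were smaller or had intervals that included 1. The ratio of Col1a1 to Col1a2 was 1.22 in the intracranial-labelled library and 0.696 in the extracranial-labelled library, a shift of 1.75-fold (interval 1.71 to 1.78). Its side of 1 in the intracranial-labelled library depended on the length used, since per kilobase of coding sequence it was 0.606 and 0.347, and the shift is the same by either length. Col4a1 to Col4a2 gave 1.34 and 1.68, a shift of 1.26-fold (interval 1.18 to 1.34). Col6a1 to Col6a2 gave 2.84 and 3.81, and Col6a1 to Col6a3 gave 4.22 and 5.42. For Col4a3 with Col4a4 and Col4a5 with Col4a6 the interval of the shift included 1, and Col9a1 was too low for a ratio to its partners.

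**Figure D3:**
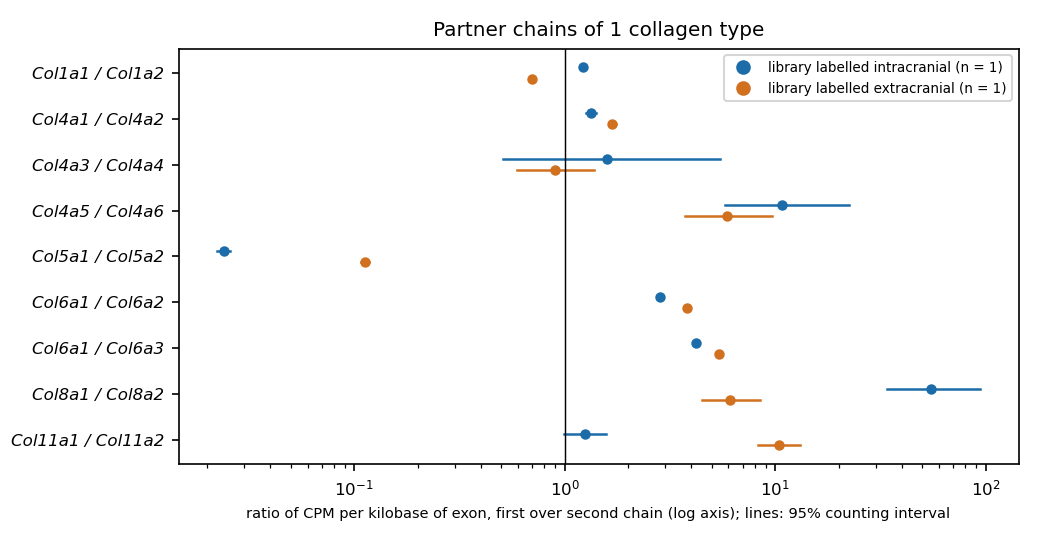
Ratio of CPM per kilobase of exon (log axis) between partner chains of 1 collagen type, first over second chain, in the intracranial-labelled library (blue) and the extracranial-labelled library (orange), with 95% counting intervals as lines. The ratio moved by 8.97-fold for Col8a1 over Col8a2, by 8.36-fold for Col11a1 over Col11a2 and by 4.70-fold for Col5a1 over Col5a2, and for Col4a3 over Col4a4 and Col4a5 over Col4a6 the intervals of both libraries overlap.

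The classes also differ in the structure of their genes, which the symbol rule did not use. In the 11 fibrillar genes, 305 of 627 internal coding exons (48.6%) were 54 bases long, which encodes 6 repeats of the glycine-led triplet of the helix, and 526 (83.9%) had a length that is a multiple of 9 bases. In the FACIT genes 26.3% of the exons had 54 bases and 55.1% were multiples of 9. In the basement membrane genes these shares were 4.61% and 50.1%, in the beaded filament genes 8.29% and 54.6%, and in the transmembrane genes 9.33% and 70.7%. These are properties of the GENCODE gene models and not of the tumors.

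Collagen chains need hydroxylases, a chaperone and processing enzymes before they form fibers, and 43 such genes and collagen receptors from 4 lists were examined, 41 of which had 10 or more counts. Their summed level was alike in both libraries, at 4872 and 5074 CPM, and the median log2 ratio was -0.07. Of the 41 genes 2 were called higher in the extracranial-labelled library and 1 was called higher in the intracranial-labelled library, beside 1.78% and 5.41% of all genes. At 2-fold these counts were 7 and 4, beside 5.86% and 9.77% of all genes.

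Among the 21 genes of chain modification and folding, P4ha3 and Creb3l1 were called. P4ha3, a catalytic subunit of prolyl 4-hydroxylase, had 1017 and 5907 counts, which is 7.54-fold apart (log2 2.91, interval 2.82 to 3.01). The paralog P4ha1 had 4188 and 3662 counts and P4ha2 had 262 and 57 counts (log2 -1.82, interval -2.26 to -1.41), and per length the order of P4ha1 and P4ha3 was reversed, at 29.3 and 9.34 CPM per kilobase in the intracranial-labelled library and 33.3 and 70.4 CPM per kilobase in the other. Creb3l1, a transcription factor of secretory cells that promotes type I collagen expression in bone, had 509 and 75 counts, which is 5.23-fold apart (log2 -2.39, interval -2.76 to -2.03), and it was not called under upper-quartile scaling. P4hb, the shared subunit of prolyl 4-hydroxylase, had the highest level per length of the list, at 255 and 262 CPM per kilobase. Serpinh1, the collagen chaperone of the endoplasmic reticulum, stood at 178 and 171 CPM per kilobase. Plod2, which hydroxylates lysines of the telopeptides, had 1089 and 2020 counts and was called at 2-fold.

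Of the 8 genes of propeptide removal, Adamts2, which cuts the amino-terminal propeptide of fibrillar procollagens, was called. It had 280 and 2082 counts, which is 9.66-fold apart (log2 3.27, interval 3.09 to 3.46). Bmp1, which cuts the carboxy-terminal propeptide, had 1972 and 1271 counts, and Pcolce, its enhancer, was the highest of the list at 50.9 and 41.6 CPM per kilobase. The paralogs Adamts3 and Adamts14 had 8 and 5 counts and 24 and 14 counts.

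None of the 5 cross-linking enzymes was called at 4-fold. Lox, the founding lysyl oxidase, was highest at 119.8 and 123 CPM per kilobase, and Loxl2 had 234 and 521 counts (log2 1.53, interval 1.31 to 1.76). Of the 9 collagen receptors none was called at 4-fold either, but 5 of the 8 with 10 or more counts were called at 2-fold, 3 higher in the extracranial-labelled library and 2 in the other, beside 5.86% and 9.77% of all genes. The integrin chains Itga11, with 1133 and 3386 counts (log2 1.96, interval 1.86 to 2.05), and Itga1, with 213 and 472 counts, were higher in the extracranial-labelled library, as was the leukocyte receptor Lair1 with 1790 and 4605 counts. Itga10, an integrin chain of chondrocytes, with 4953 and 940 counts (log2 -2.02, interval -2.12 to -1.92), and the epithelial receptor kinase Ddr1, with 971 and 206 counts, were higher in the intracranial-labelled library. Mrc2, an endocytic collagen receptor, had the highest level per length at 38.8 and 44.9 CPM per kilobase. P4ha2, Plod2, Loxl2 and the receptors called at 2-fold were named after their values were seen, as were P4ha1, Serpinh1, Bmp1, Adamts3 and Adamts14.

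**Figure D4:**
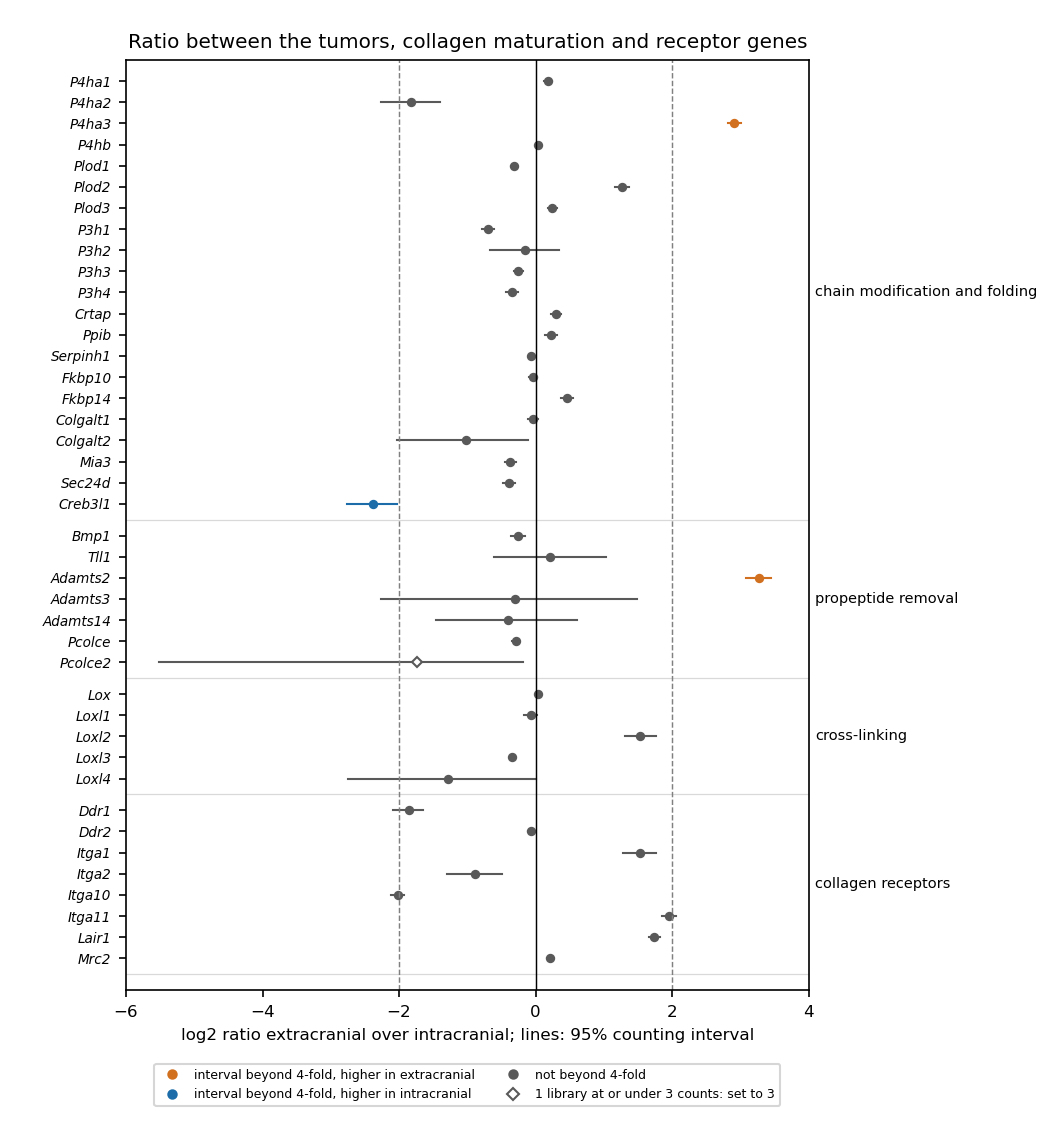
Log2 ratio of the extracranial-labelled library over the intracranial-labelled library for the 41 collagen maturation and receptor genes with 10 or more counts, by list, with 95% counting intervals; dashed lines mark 4-fold. P4ha3 and Adamts2 (orange) lie beyond 4-fold on the right and Creb3l1 (blue) on the left, while most of the others lie near 0.

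Other cell type markers differed between the libraries as well. The 10 macrophage markers were all higher in the extracranial-labelled library, with sums of 2965 and 8791 CPM, the same direction as Lair1. The 10 neuron markers summed to 80.8 and 135 CPM, 6 of them higher and 4 lower in the extracranial-labelled library, where Scn9a was at 0. The 10 skeletal muscle markers summed to 54.4 and 11.5 CPM, with Myh4 and Myog at 0 in the extracranial-labelled library. Their part in the collagen values was not tested.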

How the data were processed

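Bulk RNA was sequenced from 1 tumor labelled intracranial and 1 labelled extracranial. Per the labels and the methods of the study, poly(A) RNA was made into directional libraries, and single reads were aligned with STAR 2.7.9a to GRCm39 and counted per gene with featureCounts. The authors deposited raw counts per Ensembl gene, whose depth is given with the results. The strand and multi-mapping settings are not given in the sources used here. Symbols, exon lengths and overlaps came from GENCODE M21 on GRCm38 by gene ID (52135 of 55416 IDs matched), with no coordinates carried between builds. Counts whose ID had no symbol were 0.694% and 0.950%.

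Libraries were scaled by TMM (edgeR 4.0.16, R 4.3.3). Genes with 10 or more counts were compared by a Clopper-Pearson interval of the ratio at 95% confidence. For ratios, counts at or under the floor of 3 were set to 3 (0.0863 and 0.112 CPM). A count of 0 allows up to 0.106 and 0.138 CPM. Shifts between partner chains have log-normal (Woolf) intervals. With 1 library per location no quasi-likelihood fit in edgeR was possible. The steps were tested on simulated data that held counting error only, which cannot show how far tumors of 1 location differ. Alternatives were DESeq2 1.42.0 size factors, other scalings, thresholds, floors and lengths. The text names all collagen genes, the called genes and the most abundant gene of each maturation and receptor list, and marker genes beside a result. Members and lists were chosen with earlier results of these data known.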

Additional observations from a re-analysis of the deposited data

How the results depend on the processing

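No paired analysis was possible because there was only 1 tumor per location, and for the same reason no library could be left out. The calls at 4-fold of the collagen genes were identical with scaling by DESeq2, by total counts or by the upper quartile, which moved all log2 ratios by 0.02, -0.02 and 0.04, and no collagen ratio changed sign. With the threshold at 2-fold, 11 collagen genes and 11 maturation and receptor genes were called, by construction. With the ratio alone beyond 4-fold, 7 and 4 were called, and with a minimum of 100 counts 4 and 3, since Col4a4 had fewer. The share of all genes called under either rule was not computed, so these counts have no background beside them. Upper-quartile scaling left 2 maturation and receptor genes, without Creb3l1. Without members whose exons overlap another gene (chosen after seeing the data), 4 collagen genes remained, since Col5a1 was left out. The median log2 ratio of the short-chain collagens was -1.38 with a minimum of 100 counts, which left Col8a1 alone, and 0.20 without overlapping exons, which left out Col10a1. With a floor of 10 counts the median over all collagen genes was 0.17, and with a minimum of 100 counts or without overlapping exons that of the cartilage collagens was -0.08. The collagen share with the counts of protein-coding genes as denominator was 0.875% and 0.923%, and without keratinocyte markers and other genes over 100-fold apart, which were chosen by their difference between these libraries, it was 0.761% in the intracranial-labelled library and 0.762% in the other. The ratio of Col1a1 to Col1a2 in the intracranial-labelled library was 0.642 by counts and 0.606 by GENCODE coding length (added after seeing the data). Coding lengths from a protein table were not run, since that table was not used here. Genes under 10 counts were not called, and the lack of replicates limits every comparison. Collagen and marker genes under 10 counts but above the floor of 3 in at least 1 library still entered medians or counts of direction.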
